A study of Caenorhabditis elegans with 12 samples.

Results

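The genes described here build and run the sensory cilia of Caenorhabditis elegans. They were chosen by name from WormBase symbols, and all 40 chosen genes were found among the 25122 genes of the table. By role they comprise 11 genes of the intraflagellar transport complex B (IFT-B), 4 of complex A (IFT-A), 4 kinesin-2 motor subunits, 2 dynein-2 subunits, 6 BBSome subunits, 6 transition zone proteins, the transcription factor daf-19 and 6 genes with other ciliary roles. They lie on all 6 chromosomes, with 7 on chromosome I, 6 on II, 6 on III, 7 on IV, 6 on V and 8 on X (WBcel235).

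In C. elegans, cilia are found only at the dendrite tips of sensory neurons, most of which are born in the embryo. Intraflagellar transport carries building blocks along the ciliary microtubules in trains of IFT-A and IFT-B, moved outwards by kinesin-2 and back by dynein-2. The BBSome links the trains and carries membrane cargo, and the transition zone at the ciliary base acts as a gate. DAF-19, a transcription factor of the RFX family, switches on many of these genes through X-box motifs in their promoters. Mutants of this group often fail to take up dye from the medium (dyf), to find chemicals (che) or to avoid high osmolarity (osm), and several form dauer larvae abnormally (daf).

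RNA-sequencing was performed on eggs of 3 genotypes, with 4 libraries each. The first genotype carried daf-2(e1370) alone, the second bcl-11(bon125) in addition, and the third both of these and daf-16(mu86), and the last is called the triple mutant. All eggs therefore carried e1370, a reduction-of-function allele of the insulin/IGF receptor gene daf-2, and no wild-type or bcl-11 single mutant eggs were compared here. bon125 is a hypomorphic frameshift allele, made by genome editing, that leaves the C2H2 zinc fingers of BCL-11 intact and adds an insertion. mu86 is a deletion in daf-16, which encodes the FOXO factor held back by insulin/IGF signaling. Mothers were grown at 20°C on OP50-1 bacteria, eggs were taken by bleaching, and RNA was extracted after 2 h at 27°C. The question put to the ciliary genes is how their RNA differed between the genotypes after this warm incubation. Replicates 1 to 4 are also batches 1 to 4 in the labels, and every batch holds 1 library of each genotype. The labels do not say whether the replicates are separate cultures, so the p-values measure the spread between these libraries.

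Expression is given as the deposited regularized-log (rlog) value, a log2-scaled normalized count that shrinks weakly expressed genes towards their mean. A difference of 1 is a factor of 2, and changes of weakly expressed genes are understated. The rlog values do not keep read numbers, so the depth of the libraries is unknown, and levels are compared between genotypes and not between genes. A gene was called at an adjusted p-value below 0.05 (limma, Benjamini-Hochberg over all genes) together with a change of more than 1.5-fold in either direction.

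The libraries were first checked against their labels. The daf-16 value was 11.98 to 12.32 in the daf-2 libraries, 9.46 to 9.61 in those labelled daf-2;bcl-11 and 9.58 to 9.90 in the triple mutant. The second group thus held as little daf-16 RNA as the libraries with the mu86 deletion, although their genotype carries no daf-16 mutation. They are called the labelled double mutant here, since what is said of them depends on the label. bcl-11 itself was 9.61 to 10.47 in daf-2, 9.01 to 9.42 in the labelled double mutant and 8.05 to 9.70 in the triple mutant, and the third range overlaps the first. With each library left out in turn, its log2 fold change against daf-2 was -1.05 to -0.76 in the labelled double mutant (largest adjusted p = 0.107, limma). In the triple mutant it was -1.24 to -0.69 (largest adjusted p = 0.0439, limma). The median over all genes was 6.36 to 6.50 in the daf-2 libraries, 5.92 to 6.01 and 5.77 to 5.95 in the other groups, so that the scaling between libraries bears on each count below. As eggs, all libraries contained maternal, early zygotic and late embryonic transcripts, with mean values over 15 maternal genes between 10.68 and 12.86.

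Ciliary genes were lower in both mutants. In the labelled double mutant, 32 of the 40 genes were called lower than in daf-2 and 0 were called higher, whereas over all genes 15% were called lower and 7% higher. All 40 log2 fold changes were negative, from -1.92 to -0.09, with a median of -0.96 against -0.02 over all genes. In 35 of the 40 genes the 4 labelled double mutant libraries lay below all 4 daf-2 libraries, a pattern shown by 18.7% of all genes. When only the 14184 genes with a mean rlog value of at least 5 were fitted, 32 ciliary genes were called lower, over 23.4% of these genes called lower and 12.6% higher.

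The triple mutant gave a like picture against the same daf-2 libraries. Here 32 of 40 genes were called lower and 0 higher, over a background of 16.2% lower and 6.38% higher. Log2 fold changes ran from -2.32 to 0.09 with a median of -1.04, where the median over all genes was -0.01. All 4 triple mutant libraries lay below all daf-2 libraries in 34 genes, against 16.3% of all genes. With the same minimum mean rlog 33 ciliary genes were called lower, over 24.8% lower and 11.4% higher. Both comparisons share the daf-2 libraries and are not independent of each other. Of the 40 genes, osm-3 was called only in the labelled double mutant and osm-1 only in the triple mutant, while dyf-11, klp-11, klp-20, kap-1, daf-19, che-12 and tub-1 were called in neither. No test was made of whether osm-3 and osm-1 differ between the comparisons in a way that the others do not, and both lay at the fold change threshold where they were not called (-0.58 for osm-3 and -0.57 for osm-1).

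The scaling of the libraries and the fold threshold changed these counts. When each library was centred on its own median, the median change over all genes moved up by 0.43 in the labelled double mutant and by 0.54 in the triple mutant. Then 15 ciliary genes were called lower and 0 higher in the labelled double mutant, over 7.4% and 26.7% of all genes. In the triple mutant 15 were called lower and 1 higher, klp-20, over 8.08% and 37.6%. After quantile normalization 33 and 30 genes were called, all lower, where the background was 10.4% lower and 8.8% higher in the labelled double mutant and 10.5% and 9.06% in the triple mutant. daf-19 and kap-1 were then called in both comparisons and osm-1 in the labelled double mutant too. The xbx-1 calls were lost in both, the bbs-1 call in the labelled double mutant, and those of dyf-2, mks-1 and dyf-5 in the triple mutant. With the batch as a block 32 and 33 genes were called, all lower, over 15.2% lower and 7.56% higher of all genes in the labelled double mutant and 16.4% and 6.61% in the triple mutant. At a threshold of 1 on the log2 scale 18 and 23 genes were called, all lower, over 7.95% and 2.05% in the former and 10.1% and 0.358% in the latter.

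**Figure D1:**
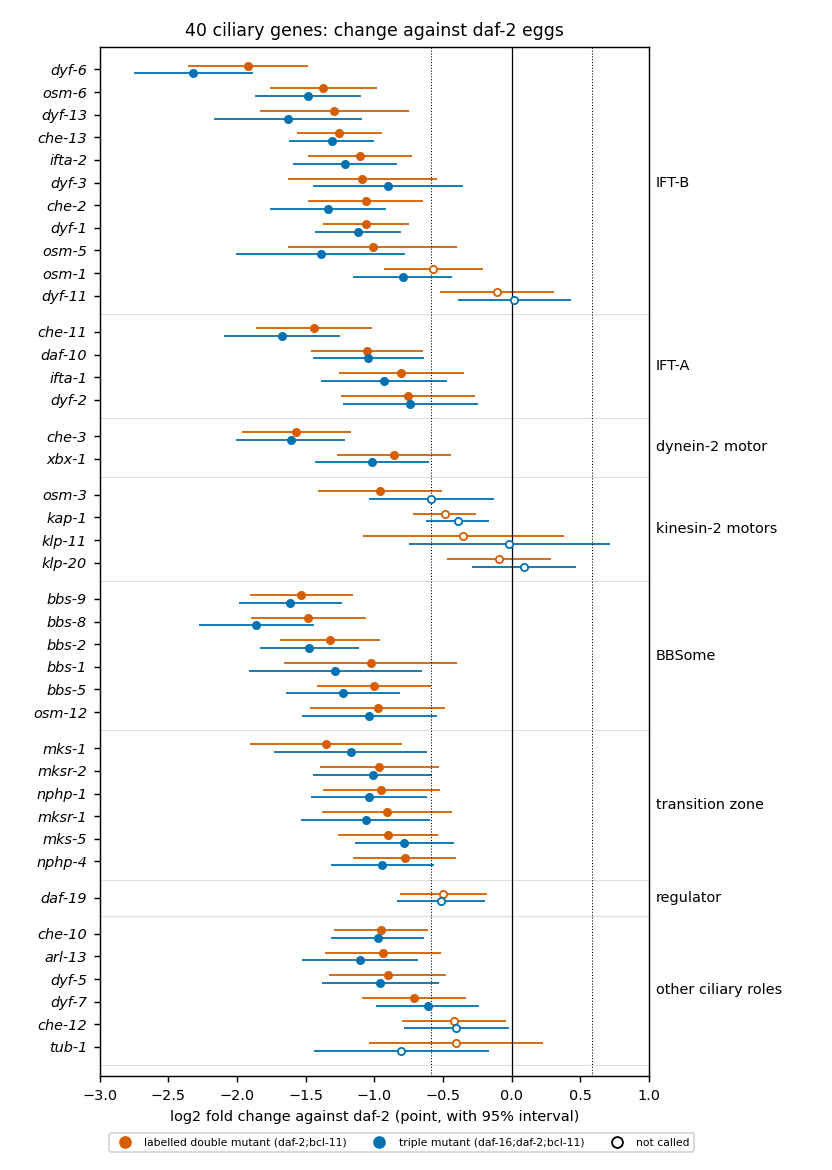
Log2 fold change against daf-2 (horizontal axis, log2 units) of the 40 ciliary genes, grouped by role, in the labelled double mutant (orange) and in the triple mutant (blue), 4 libraries per genotype. Points are limma estimates, lines their 95% intervals, filled points are called genes and dotted lines mark a 1.5-fold change in either direction; 32 of 40 points are filled in each colour, all on the left, and of the kinesin-2 group only osm-3 is filled, in orange.

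Among the IFT-B genes, 9 of 11 were called lower in the labelled double mutant and 10 of 11 in the triple mutant, with median log2 fold changes of -1.09 and -1.31. dyf-6, the nematode IFT46 gene (chromosome X, 10379693 to 10386508, WBcel235), had the largest decrease of the 40 genes in both comparisons. Its values in daf-2 replicates 1 to 4 were 9.42, 9.50, 9.23 and 9.50. They were 7.27, 7.30, 7.61 and 7.79 in the labelled double mutant and 7.01, 6.72, 7.65 and 7.01 in the triple mutant. All 8 mutant libraries lay far below the daf-2 libraries, and the mutants overlapped each other. The log2 fold change was -1.92 (standard error 0.20, adjusted p = 2.54e-05, limma) in the labelled double mutant and -2.32 (standard error 0.20, adjusted p = 3.89e-06) in the triple mutant, that is 3.79-fold and 4.99-fold lower. dyf-6 shares 153 exon bases with rme-4 on the same strand, and rme-4 had log2 fold changes of 0.43 and 0.58.

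osm-6, which encodes the IFT52 core subunit (chromosome V, 11924621 to 11927446), measured 9.33, 9.73, 9.84 and 9.43 in daf-2 replicates 1 to 4. The same gene measured 7.91, 8.13, 8.44 and 8.37 in the labelled double mutant and 7.85, 7.98, 8.25 and 8.32 in the triple mutant. The mutant values interleave, and none reaches the lowest daf-2 library. Its log2 fold changes were -1.37 (standard error 0.18, adjusted p = 0.000114, limma) and -1.48 (standard error 0.18, adjusted p = 4.05e-05).

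dyf-13, a TTC26 family gene of the same complex (chromosome II, 7168793 to 7171355), was 8.46, 9.17, 8.55 and 8.76 in daf-2. It was 7.19, 7.21, 7.64 and 7.73 in the labelled double mutant, and 6.42, 7.01, 7.40 and 7.59 in the triple mutant. Here the spread was wider than for osm-6, with triple mutant replicate 1 the lowest of the 12, but the mutants again stayed below every daf-2 library. dyf-13 changed by -1.29 (standard error 0.25, adjusted p = 0.00174, limma) and -1.63 (standard error 0.25, adjusted p = 0.000251).

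dyf-3, the nematode CLUAP1 gene (chromosome IV, 3396581 to 3399231), had 1 library that stood apart. Values in daf-2 were 10.93, 11.33, 11.02 and 10.67, and in the labelled double mutant they were 9.75, 9.64, 10.20 and 10.00. In the triple mutant replicate 1 was 9.17 and replicates 2 to 4 were 10.49, 10.38 and 10.30. That low value was the lowest of all 12 libraries, whereas the other triple mutant libraries lay above every labelled double mutant library and below every daf-2 library. With all libraries the log2 fold change was -1.09 (standard error 0.25, adjusted p = 0.0053, limma) in the labelled double mutant and -0.90 (standard error 0.25, adjusted p = 0.0137) in the triple mutant. Without triple mutant replicate 1 the triple mutant change was -0.60 and the call held (adjusted p = 0.0237, limma). Between the mutants the change was 0.18 with all libraries (95% interval -0.36 to 0.73, adjusted p = 0.908) and 0.49 without that replicate (adjusted p = 0.968). With dyf-3 included, the same library was the lowest of the triple mutant for 8 of the 11 IFT-B genes, osm-5 among them, at 8.56 beside 10.12, 10.25 and 9.65.

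The other IFT-B genes called in both mutants were osm-5, che-2, che-13, dyf-1 and ifta-2, which encode further structural or accessory subunits. Their log2 fold changes lay between -1.26 (che-13) and -1.01 (osm-5) in the labelled double mutant, and between -1.39 (osm-5) and -1.12 (dyf-1) in the triple mutant. che-13 was the tightest of them in daf-2, at 10.67 ± 0.03 (SD, n = 4). osm-1, the IFT172 gene, was 11.64 ± 0.32 in daf-2, 11.07 ± 0.05 in the labelled double mutant and 10.84 ± 0.26 in the triple mutant (SD, n = 4 each). Its decrease passed the adjusted p in both comparisons (0.0195 and 0.00232, limma) and the fold threshold only in the triple mutant (-0.79). The labelled double mutant change also passed both thresholds without daf-2 replicate 1 (-0.68), daf-2 replicate 4 (-0.65) or labelled double mutant replicate 3 (-0.60). Conversely, osm-5 was no longer called in the labelled double mutant without its replicate 1 (-0.93, adjusted p = 0.0532, limma). dyf-11, the nematode IFT54 gene, was the one IFT-B gene called in neither mutant. It was 9.66 ± 0.42, 9.55 ± 0.19 and 9.68 ± 0.15 in the same order, with log2 fold changes of -0.11 (95% interval -0.52 to 0.31) and 0.02 (95% interval -0.39 to 0.44).

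All 4 IFT-A genes were called lower in both mutants, with medians of -0.93 and -0.99. che-11, the IFT140 gene (chromosome V, 12144244 to 12150707), had daf-2 values of 10.15, 10.53, 10.59 and 10.44. Its values were 8.88, 8.71, 9.39 and 8.97 in the labelled double mutant and 8.44, 8.56, 9.23 and 8.77 in the triple mutant. Replicate 3 was the highest in both mutants, still below the daf-2 libraries. The log2 fold changes of che-11 were -1.44 (standard error 0.20, adjusted p = 0.000148, limma) and -1.67 (standard error 0.20, adjusted p = 3.25e-05). daf-10, the IFT122 gene, changed by -1.05 in either mutant, ifta-1 by -0.80 and -0.93, and dyf-2, the WDR19 gene, by -0.76 and -0.74. The dyf-2 calls were the least stable of the 40 genes, being lost in 7 of 21 alternative settings in the labelled double mutant and in 9 of 21 in the triple mutant. In the former it was lost without daf-2 replicate 1 (-0.72) or 2 (-0.70) or labelled double mutant replicate 1 (-0.60) or 2 (-0.75), and in the latter without daf-2 replicate 1 (-0.71) or 2 (-0.68) or triple mutant replicate 1 (-0.61) or 4 (-0.58).

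Among the motor genes, both dynein-2 genes were called lower in either mutant. che-3, the dynein-2 heavy chain (chromosome I, 8062007 to 8081671), was 10.46, 11.00, 10.67 and 10.65 in daf-2. It was 9.02, 8.87, 9.42 and 9.19 in the labelled double mutant and 9.24, 9.03, 9.41 and 8.67 in the triple mutant. No mutant library came near a daf-2 library, and the change was -1.57 (standard error 0.19, adjusted p = 5.52e-05, limma) and -1.61 (standard error 0.19, adjusted p = 2.77e-05). xbx-1, the light intermediate chain, changed by -0.86 and -1.02.

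Of the 4 kinesin-2 genes, only osm-3 was called. osm-3 encodes the homodimeric motor that builds the distal part of the cilium (chromosome IV, 3796300 to 3801052). Its values were 9.83, 10.18, 9.89 and 10.17 in daf-2, 8.72, 9.15, 9.27 and 9.09 in the labelled double mutant, and 9.43, 9.90, 9.60 and 8.81 in the triple mutant. The labelled double mutant libraries lay below all daf-2 libraries, whereas triple mutant replicate 2 reached into the daf-2 range. The osm-3 changes were -0.96 (standard error 0.21, adjusted p = 0.00362, limma) and -0.58 (standard error 0.21, adjusted p = 0.0477), and the second missed the fold threshold. Without triple mutant replicate 2 it passed (-0.74, adjusted p = 0.0169). osm-3 shares 181 exon bases with algn-14 on its own strand, and algn-14 had log2 fold changes of -0.06 and 0.08. It also shares 19 with K09B3.1 on the opposite strand, which was called lower in both comparisons (-0.80 and -1.47).

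The heterotrimeric kinesin-II, which moves the trains along the middle part of the cilium together with OSM-3, is made of klp-11, klp-20 and kap-1. klp-20 was 11.61 ± 0.27 in daf-2, 11.51 ± 0.01 in the labelled double mutant and 11.69 ± 0.37 in the triple mutant (SD, n = 4 each). Its changes were -0.09 (95% interval -0.47 to 0.29) and 0.09 (95% interval -0.29 to 0.47), intervals that leave out a decrease of the size seen in che-3. kap-1, the accessory subunit, had log2 fold changes of -0.49 and -0.39, with adjusted p-values of 0.00363 and 0.0116 (limma), below the fold threshold but with no overlap between either mutant and daf-2. After quantile normalization they were -0.67 and -0.60, and after median centring -0.058 and 0.15. klp-11 is uncertain, because it shares 2349 exon bases on the same strand with F20C5.11, and its values of 5.80 ± 0.54, 5.45 ± 0.76 and 5.78 ± 0.25 gave wide intervals (-1.09 to 0.38 and -0.75 to 0.72). F20C5.11 had log2 fold changes of -0.39 and -0.22 and was called in neither comparison.

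**Figure D2:**
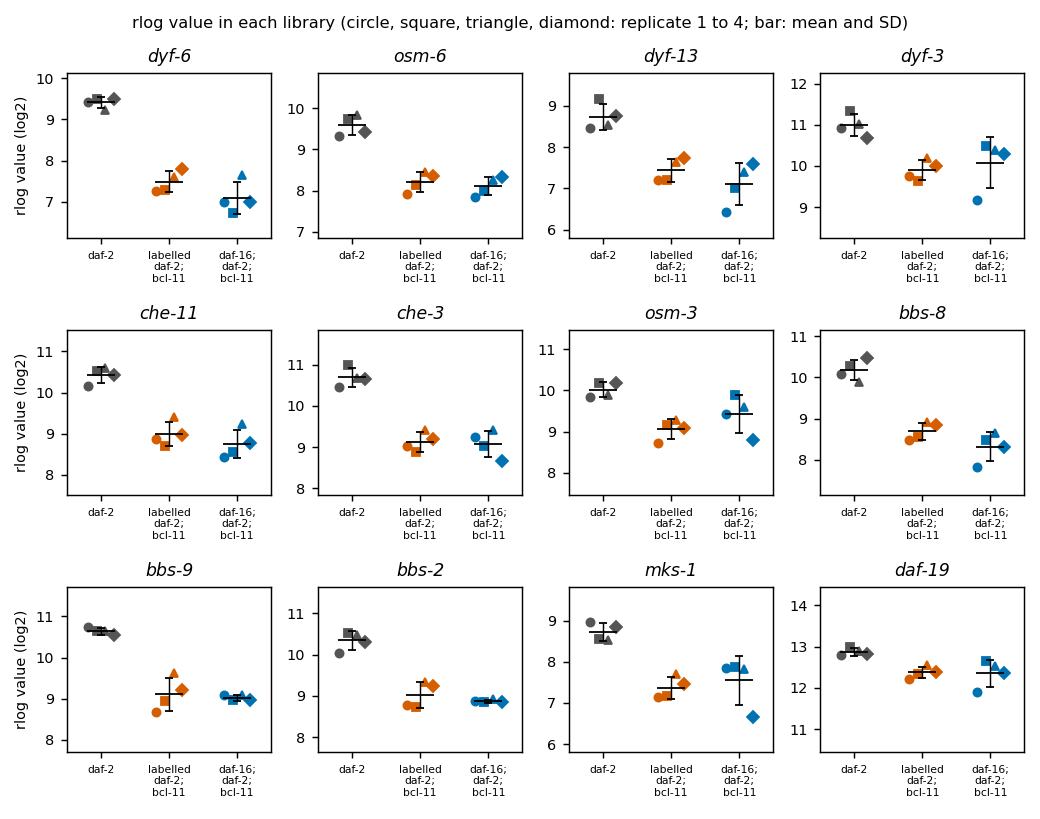
rlog value (vertical axis, log2 scale, every panel spanning 4 units) in each of the 12 libraries for 12 ciliary genes, with daf-2 in grey, the labelled double mutant in orange and the triple mutant in blue. Symbols mark replicates 1 to 4 and bars the mean and SD of 4 libraries; dyf-3 replicate 1 (9.17) and mks-1 replicate 4 (6.65) of the triple mutant lie apart from their groups, and osm-3 is the one panel where a mutant library reaches the daf-2 range.

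Every one of the 6 BBSome genes was called lower in both mutants, with medians of -1.17 and -1.38 and ranges of -1.53 to -0.98 and -1.86 to -1.04. bbs-8 (chromosome V, 6762467 to 6765072) was 10.08, 10.27, 9.89 and 10.46 in daf-2. It measured 8.48, 8.56, 8.91 and 8.83 in the labelled double mutant and 7.83, 8.49, 8.64 and 8.30 in the triple mutant. The triple mutant mean was the lower one but the values overlapped, and both sets were clear of daf-2. Its log2 fold changes were -1.48 (standard error 0.19, adjusted p = 0.000114, limma) and -1.86 (standard error 0.19, adjusted p = 1.42e-05).

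bbs-9 (chromosome I, 6917700 to 6922973) was nearly constant in daf-2, at 10.74, 10.64, 10.64 and 10.54, and in the triple mutant, at 9.09, 8.97, 9.09 and 8.97. In the labelled double mutant it varied more, at 8.67, 8.94, 9.61 and 9.21, with replicate 3 the highest. bbs-9 changed by -1.53 (standard error 0.18, adjusted p = 4.4e-05, limma) and -1.61 (standard error 0.18, adjusted p = 1.88e-05).

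bbs-2 (chromosome IV, 7934033 to 7937749) showed the same contrast in spread. It was 10.04, 10.53, 10.49 and 10.32 in daf-2, 8.78, 8.73, 9.34 and 9.23 in the labelled double mutant, and 8.86, 8.84, 8.92 and 8.85 in the triple mutant. The triple mutant libraries all fell inside the range of those labelled daf-2;bcl-11. The changes were -1.32 (standard error 0.17, adjusted p = 9.45e-05, limma) and -1.47 (standard error 0.17, adjusted p = 2.69e-05). For bbs-1, bbs-5 and osm-12, the last being the nematode BBS7 gene, the changes lay between -1.03 and -0.98 in the labelled double mutant and between -1.29 and -1.04 in the triple mutant. bbs-1 in triple mutant replicate 1 was 7.56, beside 8.20 to 9.03 in the other triple mutant libraries. The bbs-1 call in the labelled double mutant was lost without daf-2 replicate 2 (-0.92) or labelled double mutant replicate 1 (-0.97) or 2 (-0.86).

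The transition zone genes were likewise called lower, 6 of 6 in both mutants, with medians of -0.93 and -1.03. They comprise mks-1, mksr-1 and mksr-2 of the MKS module, nphp-1 and nphp-4 of the NPHP module, and mks-5, a scaffold that both modules need. mks-1 (chromosome III, 3186280 to 3191307) was 8.97, 8.55, 8.52 and 8.85 in daf-2 and 7.15, 7.16, 7.70 and 7.46 in the labelled double mutant. In the triple mutant, replicates 1 to 3 were 7.85, 7.87 and 7.82, and replicate 4 was 6.65. Replicates 1 to 3 lay between the other groups, and replicate 4 was the lowest of all 12 libraries. mks-1 changed by -1.35 (standard error 0.26, adjusted p = 0.00151, limma) and -1.17 (standard error 0.26, adjusted p = 0.00306).

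The other transition zone genes changed less. nphp-1 was 12.48 ± 0.14 in daf-2, 11.53 ± 0.30 in the labelled double mutant and 11.44 ± 0.43 in the triple mutant (SD, n = 4 each). mksr-1 and mksr-2 changed by -0.91 and -0.96 in the labelled double mutant and by -1.06 and -1.01 in the triple mutant. For nphp-4 the changes were -0.78 and -0.94, and for mks-5 they were -0.90 and -0.78. Triple mutant replicate 4 was the lowest of its group for 5 of the 6 transition zone genes and for both dynein-2 genes, whereas replicate 1 was the lowest for 8 of 11 IFT-B genes and 4 of 6 BBSome genes.

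daf-19, the activator of the group (chromosome II, 10157520 to 10169346), was 12.79, 12.996, 12.89 and 12.81 in daf-2. It was 12.22, 12.33, 12.56 and 12.38 in the labelled double mutant and 11.89, 12.64, 12.52 and 12.37 in the triple mutant. All mutant libraries lay below all daf-2 libraries, by a smaller step than in most of the genes above. The log2 fold changes were -0.50 (standard error 0.15, adjusted p = 0.0206, limma) and -0.52 (standard error 0.15, adjusted p = 0.0154), below the fold threshold, so daf-19 was not called. Without triple mutant replicate 2 it was called in the triple mutant (-0.61, adjusted p = 0.00809). The daf-19 changes were -0.069 and 0.023 after median centring, and -0.71 and -0.75 after quantile normalization, where both were called. One value per gene does not tell the daf-19 isoforms apart, of which some act in neurons without cilia.

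Of the 6 genes with other ciliary roles, 4 were called lower in both mutants. They are che-10, the rootletin gene, dyf-5, a kinase that limits cilium length, dyf-7, which anchors dendrite tips during their growth, and arl-13, a small GTPase of the ciliary membrane. Their log2 fold changes were between -0.95 (che-10) and -0.71 (dyf-7) in the labelled double mutant and between -1.11 (arl-13) and -0.61 (dyf-7) in the triple mutant. The last was no longer called without daf-2 replicate 2 (-0.53) or 3 (-0.56) or triple mutant replicate 4 (-0.47). dyf-5 shares 140 exon bases with ppfr-1 on the opposite strand, within which these libraries cannot tell the genes apart, and ppfr-1 had changes of 0.14 and -0.01. che-12, a ciliary microtubule-associated protein, had changes of -0.42 and -0.40 with adjusted p-values of 0.0911 and 0.103 (limma). tub-1, the tubby gene, was 5.34, 6.97, 6.41 and 6.95 in daf-2, with replicate 1 below every other library of the 12. Its changes were -0.41 (adjusted p = 0.336, limma) and -0.80 (adjusted p = 0.0522), and with the batch as a block the second was called (adjusted p = 0.0488). Without daf-2 replicate 1 both were called (-0.77 and -1.16). In all, 19 of the 40 genes share exon bases with another annotated gene, 13 of them with one on the opposite strand. Of the 18 such partner genes in the table, 6 were called lower in both comparisons, namely col-36 (partner of dyf-13), T28F3.5 (ifta-2), C27A7.3 (che-11), sid-2 (dyf-2), grd-12 (xbx-1) and K09B3.1 (osm-3). Called higher were F40G9.17 (klp-20) and inpp-4B (bbs-5) in the labelled double mutant, and hpo-38 (klp-20) in the triple mutant. Over all genes 15% were called lower and 7% higher in the labelled double mutant, and 16.2% and 6.38% in the triple mutant. The part of these partners in the values of the ciliary genes was not tested.

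Between the mutants, 0 of the 40 genes were called, and 0 had an unadjusted p-value below 0.05 by limma, where 0.0119% of all genes were called and 6.03% had such a p-value. The log2 fold changes of the triple mutant against the labelled double mutant ran from -0.40 to 0.37 with a median of -0.07. The triple mutant mean was the lower one in 28 genes and the higher one in 12. The 3 smallest p-values were those of bbs-8 (-0.38, 95% interval -0.80 to 0.04), dyf-6 (-0.40, 95% interval -0.83 to 0.04) and osm-3 (0.37, 95% interval -0.08 to 0.83), each with an adjusted p of 0.787 (limma). These intervals still hold differences of more than the fold threshold. The groups did not overlap in 1 gene, tub-1, at 5.89 to 6.21 in the labelled double mutant and 5.37 to 5.87 in the triple mutant, while 4.32% of all genes showed no overlap between these groups. daf-16 itself differed by 0.20 between these groups (adjusted p = 0.793, limma), so the comparison does not set a normal against a low daf-16 RNA level.

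The decrease was present within every batch. Library means over the 40 genes were 10.15 to 10.47 in daf-2. They were 9.16 to 9.59 in the labelled double mutant and 9.05 to 9.50 in the triple mutant. Neither mutant range overlaps that of daf-2, so any pairing of the libraries would give a decrease. Averaged over the 40 genes, the labelled double mutant libraries were below the daf-2 library of their batch by a mean difference of -0.99, -1.30, -0.75 and -0.79 in batches 1 to 4, with 37, 39, 40 and 36 genes lower. For the triple mutant the differences were -1.11, -1.04, -0.85 and -1.14, with 37, 38, 39 and 39 genes lower. The triple mutant against the labelled double mutant gave -0.12, 0.25, -0.09 and -0.35, which changes sign between batches. Single libraries also carried a common shift. daf-2 replicate 2 was the highest of all 12 libraries for 24 of the 40 genes, labelled double mutant replicate 3 was the highest of its group for 35, and triple mutant replicates 1 and 4 were the lowest of all 12 for 17 and 11.

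Other genes of the cilium were listed separately by name. Of 35 such genes, 23 were called lower and 0 higher in either comparison, with medians of -0.85 and -1.03. Called over all genes were 15% lower and 7% higher in the labelled double mutant, and 16.2% and 6.38% in the triple mutant. Among the 35, mks-2, a membrane protein of the transition zone, had the largest change, at -1.995 and -1.951. In the labelled double mutant the next were tmem-17 (-1.54) and tmem-218 (-1.35) of the transition zone, ift-74 of IFT-B (-1.45) and the kinase gene dyf-18 (-1.36). In the triple mutant they were ift-139 of IFT-A (-1.58), dyf-18 (-1.58), ift-74 (-1.51) and the dynein light chain gene dylt-2 (-1.47). The 12 genes not called in either were ift-43, arl-6, nphp-2, hyls-1, rpi-2, dyf-17, dyf-19, xbx-6, ccpp-1, ttll-11, fkh-8 and daf-25. Their changes ran from -0.68 (dyf-19) to 0.42 (ccpp-1) in the labelled double mutant and from -0.72 (ttll-11) to 0.56 (hyls-1) in the triple mutant. In the triple mutant hyls-1 (0.56, adjusted p = 0.000653, limma), daf-25 (0.56, adjusted p = 0.00421) and xbx-6 (0.49, adjusted p = 0.0133) passed the adjusted p in the upward direction but not the fold threshold. So did hyls-1 (0.36, adjusted p = 0.0131, limma) and daf-25 (0.40, adjusted p = 0.0314) in the labelled double mutant, where rpi-2 (-0.55) and fkh-8 (-0.55) did so downward. Of 12 sensory transduction genes of the same neurons, 8 were called lower in each comparison, with medians of -0.94 and -0.88. The guanylate cyclase gene daf-11 had the largest change (-2.44 and -3.22). The cyclic nucleotide-gated channel genes tax-2 and tax-4 changed by -1.40 and -1.62 and by -1.01 and -0.58, and tax-4 was not called in the triple mutant. Called in neither were odr-4, which was higher in both mutants (0.26 and 0.30), gpa-13 (-0.04 and -0.16) and osm-9 (-0.21 and -0.46).

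Marker lists for other cells and for stages of the embryo were read beside the ciliary genes. In the labelled double mutant 15% of all genes were called lower and 7% higher. In the triple mutant these shares were 16.2% and 6.38%. Of 15 genes expressed in all neurons, 8 were called lower in the labelled double mutant and 11 in the triple mutant, with medians of -0.67 and -0.83, and their mean level was 10.24 to 10.63 in daf-2, 9.68 to 9.84 in the labelled double mutant and 9.46 to 9.89 in the triple mutant. Of 5 amphid glia genes 3 and 4 were called lower. In these whole-egg libraries, fewer ciliated neurons and less ciliary RNA per neuron cannot be told apart. Of 20 late embryonic genes 10 were called lower in each comparison, and these were all muscle genes (myo-1, myo-2, myo-3, unc-54, unc-15, tnt-2, pat-10, lev-11, mlc-1 and mlc-2). The other 10 were not called. They ran from -0.53 to 0.22 in the labelled double mutant and from -0.55 to 0.41 in the triple mutant. Among them were the epidermal genes noah-1 and noah-2 and the gut gene elt-2, but also the muscle gene unc-27 and the actin gene act-4. Of 15 maternal genes 12 were called higher in the labelled double mutant and 2 in the triple mutant, and of 15 early zygotic genes 10 and 1, with 1 lower in the triple mutant. Their mean levels overlapped between daf-2 and the triple mutant (maternal 10.68 to 12.03 and 11.28 to 12.86, early zygotic 7.85 to 9.09 and 8.02 to 10.25) and did not overlap between daf-2 and the labelled double mutant (12.19 to 12.72 and 9.60 to 10.03).

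A stage score was formed by subtracting the mean rlog of the late embryonic genes from that of the maternal and early zygotic genes, and it thus includes the muscle genes. It was -4.90 to -3.30 in daf-2, -2.54 to -1.99 in the labelled double mutant and -4.14 to -1.41 in the triple mutant. With this score as a covariate 12 of the 40 genes were called lower in the labelled double mutant, where 10.2% of all genes were called lower and 5.72% higher, and 29 in the triple mutant, where 15.8% were called lower and 7.83% higher. None was called higher. The 12 genes were osm-6, che-2, che-13, dyf-1, dyf-6, dyf-13, ifta-2, che-11, che-3, bbs-2, bbs-8 and bbs-9. Within the 4 batches, the mean difference of the labelled double mutant from daf-2 was 0.17 to 1.81 for the maternal, 0.55 to 1.93 for the early zygotic and -0.87 to -0.41 for the late embryonic list. For the triple mutant it was 0.40 to 0.83, -0.24 to 1.20 and -0.88 to -0.15. The genotype and the score do not overlap in the first comparison and cannot be told apart there. The part of embryonic age and of neuron number in the decrease was not tested.

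**Figure D3:**
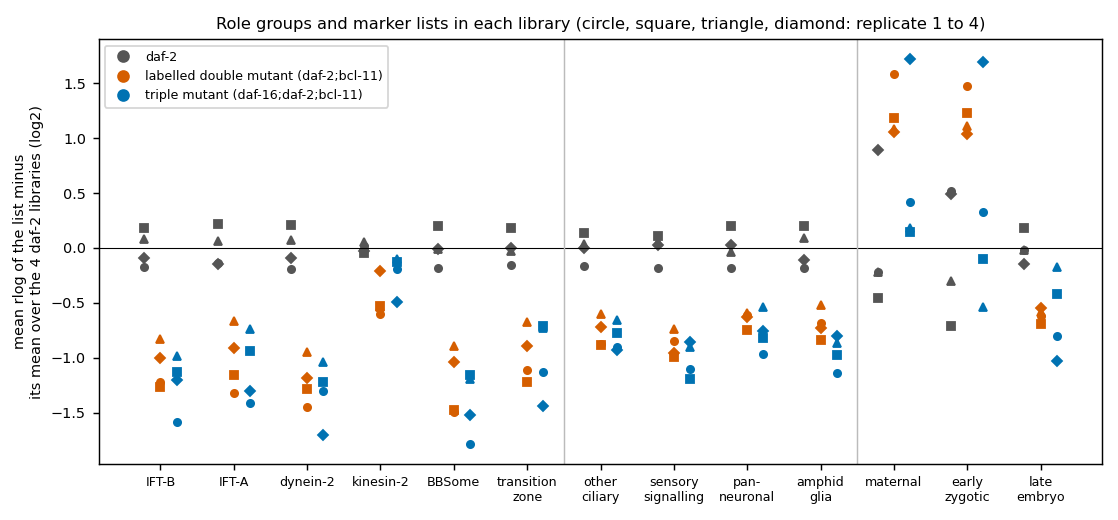
Mean rlog of each role group or marker list in every library, minus its mean over the 4 daf-2 libraries (vertical axis, log2 units), for daf-2 (grey), the labelled double mutant (orange) and the triple mutant (blue), with symbols for replicates 1 to 4. The IFT-B, IFT-A, dynein-2, kinesin-2, BBSome and transition zone groups lie below daf-2 in all 8 mutant libraries. So do the other ciliary, neuronal, glial and late embryonic lists, while the maternal and early zygotic lists of the triple mutant overlap those of daf-2.

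**Figure D4:**
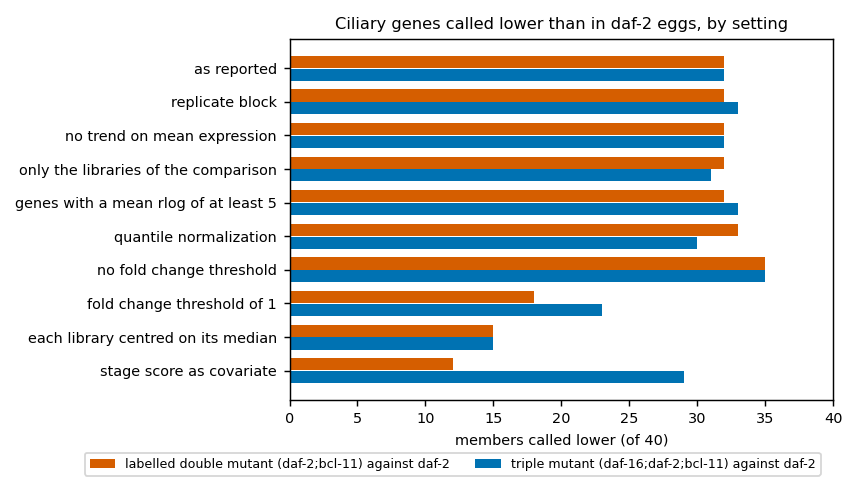
Number of the 40 ciliary genes called lower than in daf-2 (horizontal axis, from 0) under the reported setting and 9 alternatives, in the labelled double mutant (orange) and the triple mutant (blue). The counts are 32 and 32 as reported, 15 and 15 after median centring, and 12 and 29 with the stage score as covariate.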

How the data were processed

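Total RNA (5 ng) from eggs was made into Smart-seq2 libraries, which do not keep the strand. The authors demultiplexed reads with bcl2fastq 2.20, quantified them with Kallisto 048.0 against Ensembl 109 (WBcel235), and deposited rlog values, on a log2 scale, for 25122 genes in 12 libraries. How counts were summed and filtered is not given in the sources used here. The labels name a miRNeasy Micro kit and the paper's methods an RNeasy Micro kit.

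The values were used as deposited. Genotypes were compared with limma 3.58.1 (R 4.3.3, eBayes with a trend) in 1 model of all 12 libraries without a block, with Benjamini-Hochberg adjustment over all genes. Symbols, coordinates and exon overlaps came from gene name tables and the Ensembl 115 annotation. Members and lists were chosen with earlier results of these data known. Values in every library are given for daf-19, dyf-3, the 8 called members of largest change without overlap in each comparison with daf-2, and the 3 of smallest p between the mutants. From the list of other ciliary genes the 5 largest called changes are named; further genes of the other lists were named after their values were seen.

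Replicate numbers are batches in the labels and pair the libraries. Deviations of libraries of the same number correlated at -0.10 to 0.18 (daf-2 with daf-2;bcl-11), 0.04 to 0.38 (daf-2 with the triple mutant) and -0.30 to 0.12 (between mutants). Alternatives were the batch as a block, centring on library medians, quantile normalization, a minimum mean rlog of 5, no trend, only the libraries compared, other fold thresholds, the stage score as covariate and each library left out in turn. X-box motifs and sequences were not analysed here.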

Additional observations from a re-analysis of the deposited data

Results flagged for a closer look

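Of the 120 groups of 4 libraries (40 genes in 3 genotypes), 4 held a library whose gap to its nearest neighbour, as a share of the group's range, exceeded Dixon's 95% critical value, where chance gives about 1 in 20, or 6 groups. dyf-3 was 9.17 in daf-16;daf-2;bcl-11 replicate 1, and the other 3 libraries of the triple mutant averaged 10.39 (gap 0.856 of the range). mks-1 was 6.65 in replicate 4 of the same genotype, beside a mean of 7.85 in the others (gap 0.964). mks-5, a transition zone scaffold, was 11.13 in daf-2 replicate 2 and averaged 10.61 in the others (gap 0.880). dyf-5, the cilium length kinase, was 8.61 in labelled double mutant replicate 3 and averaged 8.05 in the others (gap 0.883).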

How the results depend on the processing

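The 32 calls in each comparison with daf-2 depended on scaling and on the stage score. In the labelled double mutant, 15 genes were called after centring (median -0.53), 12 with the stage score (median -0.52) and 18 at a fold threshold of 1, all lower. The shares of all genes called lower in these settings were 7.4%, 10.2% and 7.95%. In the triple mutant 16 were called after centring (median -0.50), 15 lower and klp-20 higher, over 8.08% of all genes called lower and 37.6% higher. The triple mutant median was -0.83 after quantile normalization and -0.76 with the stage score. Centring adds the same amount to every gene of a comparison. The batch as a replicate block left 32 calls in the labelled double mutant and added tub-1 in the triple mutant (33), with no other call changed, over 15.2% and 16.4% of all genes called lower. Leaving out 1 library at a time gave 29 to 33 and 30 to 34 calls, over 12.8% to 15.3% and 14.9% to 16.8% of all genes called lower, and medians of -1.06 to -0.90 and -1.13 to -0.94. In every one of the 21 alternatives 12 and 14 of the calls were kept. Between the mutants 0 of the 40 genes were called under each alternative.

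Changes of direction occurred only in genes not called as reported. After centring, in the labelled double mutant, dyf-11 (0.32), klp-11 (0.076), klp-20 (0.34), che-12 (0.0081) and tub-1 (0.023) turned positive, and in the triple mutant klp-11 (0.52), kap-1 (0.15), daf-19 (0.023) and che-12 (0.14). After quantile normalization dyf-11 (0.089), klp-11 (0.020) and tub-1 (0.021) turned in the former, and klp-11 (0.48) and klp-20 (-0.052) in the latter. With the stage score dyf-11 (0.12) and klp-20 (0.48) turned in the former. With 1 library left out, dyf-11 ranged over -0.24 to 0.042 and -0.11 to 0.17, klp-20 over -0.20 to 0.0024 and -0.022 to 0.24, and klp-11 in the triple mutant over -0.27 to 0.16. The causes were not tested. Read depth is unknown, so no limit from depth can be set, and the scan for X-box motifs was not run.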
